A study of Homo sapiens with 9 samples.

Results

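Metalloproteases and their tissue inhibitors were examined as a gene family in A549 cells, an established human lung adenocarcinoma line. The members were every protein-coding gene of the count table whose symbol is MMP, ADAM, ADAMTS, ADAMTSL or TIMP followed by a number and an optional letter. This rule found 69 of the 51796 genes counted, namely 21 MMP, 20 ADAM, 24 ADAMTS and 4 TIMP genes. The ADAMTS set held 19 ADAMTS genes and 5 ADAMTSL genes, which are counted with it because they share its domains outside the protease. Another 6 rows fitted the symbol rule but are annotated as other than protein-coding and were left out. MMP12 and MMP28 were not analysed here.

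The active proteases of the family are zinc enzymes that work at or outside the cell surface, and some ADAMs lack the active site. MMPs cut matrix proteins and are either secreted or anchored in the membrane, ADAMs are mostly membrane proteins that shed the outer parts of other membrane proteins, and ADAMTS proteins are secreted and bind the matrix. Most are made as inactive precursors that are activated by removal of a prodomain, often by furin-like convertases. TIMPs are small secreted proteins that block the active site of MMPs and, with different selectivity, of ADAM and ADAMTS proteases, and the balance of proteases and TIMPs has long been studied in tumour invasion.

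The 9 RNA libraries formed 3 groups of 3 biological replicates, each from A549 cells that stably expressed a short hairpin RNA under puromycin selection, and the groups were a PRMT5 knockdown, a MEP50 knockdown and a control knockdown with a hairpin against GFP. PRMT5 is the arginine methyltransferase of the methylosome and MEP50, encoded by WDR77, is its partner. The study's title names TGF-beta and invasion, a process in which matrix-cutting proteases take part. Each target was hit in 1 group of libraries, so an effect of the target and an effect of the hairpin or of that selected culture cannot be told apart. Both knockdowns were set against the same 3 control libraries.

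Library depth ran from 20806181 to 31586128 reads on genes. The knockdowns matched their labels: PRMT5 stood at 68.9 ± 1.33 CPM in the PRMT5 knockdown, 204 ± 6.35 CPM in the MEP50 knockdown and 209 ± 3.17 CPM in the GFP control, and WDR77 at 44.1 ± 2.52, 12.5 ± 1.58 and 39.4 ± 0.225 CPM in the same order of groups (SD, n = 3 each). CPM is the count per 1000000 reads on genes after TMM scaling between libraries. All 8 epithelial and A549 markers had a read, with summed levels of 8311 to 8586 CPM in the PRMT5 knockdown, 8857 to 9318 CPM in the MEP50 knockdown and 10905 to 11172 CPM in the control. KRT8, KRT18, AKR1B10 and ALDH1A1 made up most of this, while EPCAM averaged 0.219, 0.226 and 0.159 CPM in the same order and KRT19 had 0, 0 and 2 reads. The mean levels of KRT8, KRT18, AKR1C1 and ALDH1A1 were lower in both knockdowns than in the control. AKR1B10 was higher in both, at 1614, 1738 and 1047 CPM in the same order, and CDH1 averaged 34.9, 75.6 and 40.1 CPM. Of the fibroblast markers, 7 of 8 had a read and their summed level ran from 221 to 233 CPM in the PRMT5 knockdown, 273 to 291 CPM in the MEP50 knockdown and 108 to 110.3 CPM in the control, nearly all of it COL3A1, while THY1 was at 0 in all 9 libraries and DCN, COL1A2 and PDGFRB were at or near 0. COL1A1, COL3A1 and PDGFRA averaged higher in both knockdowns than in the control. LUM averaged 0.629 CPM in the PRMT5 knockdown, 7.9 CPM in the MEP50 knockdown and 5.17 CPM in the control. Of the blood markers, 5 of 6 had a read, with sums of 23.8 to 27.1, 26 to 29.8 and 15.7 to 17.6 CPM in the PRMT5 knockdown, MEP50 knockdown and control, nearly all of it CD68, and CD3E was at 0. Endothelial markers stayed at or below 0.27 CPM. The part of these marker shifts in the results below was not tested.

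Many members had few or no reads. Enough reads to be tested were found for 30 of the 69 members, namely 6 of 21 MMP, 11 of 20 ADAM, 10 of 24 ADAMTS and 3 of 4 TIMP genes. Another 23 members had between 1 and 49 reads over all 9 libraries, and 16 had none, for which a floor of 3 reads allows a level of up to 0.0125 CPM over the 9 libraries. This floor covers counting error only. In bulk RNA, fewer cells that express a gene and less RNA per cell cannot be told apart.

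Most secreted MMPs were among the members with too few reads. Of the MMPs, 5 of the 7 membrane-anchored genes were tested (MMP14, MMP15, MMP16, MMP17 and MMP24), against 1 of the 14 secreted genes (MMP19). Of the MMP gene array on chromosome 11, 8 members were analysed. They were the interstitial collagenase MMP1, the stromelysins MMP3 and MMP10, the matrilysin MMP7, and MMP8, MMP13, MMP20 and MMP27. Together these had 23 reads over 9 libraries, and 4 of the 8 had no read. These 8 genes, and TIMP3, the matrix-bound TIMP with no read in any library, were singled out after their values were seen. Among ADAMs, 7 of 12 with a protease active site and 4 of 8 without one were tested. In the ADAMTS set, 3 of 7 proteoglycanases, both genes linked to fibrillin microfibrils (ADAMTS6 and ADAMTS10), 1 of 2 that cleave COMP and 2 of 5 ADAMTSL genes were tested, and none of the 3 procollagen N-proteinases.

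The promoter of MMP10 is shown for this array, whose analysed members had few or no reads. MMP10 had 7 reads in the PRMT5 knockdown, 2 in the MEP50 knockdown and 0 in the control. The 250 bases before its RefSeq start (GRCh38.p14, chr11:102780629-102780878, minus strand) are printed 5′ to 3′ with an AP-1 match 67 bases before the start and a TATA match 31 bases before it in capitals.
MMP10: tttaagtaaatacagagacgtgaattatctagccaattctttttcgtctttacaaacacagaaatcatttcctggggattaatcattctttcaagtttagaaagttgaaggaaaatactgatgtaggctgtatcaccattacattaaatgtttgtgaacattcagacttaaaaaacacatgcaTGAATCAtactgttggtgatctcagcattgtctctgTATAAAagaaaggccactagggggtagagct
The motifs searched on both strands of this and the later promoters were TGANTCA for AP-1, TATAAA for a TATA box, GGGCGG for a GC box, CAGACA for a SMAD element and CACCTG for an E-box, and none of these overlaps another. Among 27305 RefSeq promoters of the same length, 6.74% held the AP-1 letters, 11.3% the TATA letters, 41.6% the GC box, 13.7% the SMAD letters and 17.5% the E-box. These matches describe the sequence and mark no binding site.

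Levels of the 30 tested members per kilobase of annotated exon, averaged over the 9 libraries, spanned from 0.0651 CPM per kb for ADAMTS13 to 89.1 CPM per kb for ADAM9. ADAM9, a widely expressed membrane sheddase, was followed by TIMP1 at 62.8, the sheddase ADAM10 at 16.5, TIMP2 at 10.9, MMP24 at 9.57, the sheddase ADAM17 at 7.37 and ADAM15 at 6.82 CPM per kb. Next came MMP16 at 3.51, ADAM23 at 3.45 and MMP15 at 2.79 CPM per kb. MMP14, the best known membrane-type MMP, lay at 0.712 CPM per kb, below 3 of the other membrane MMPs. A handful of genes thus carried each subfamily by this measure. ADAM9 held 70% of the summed ADAM level, TIMP1 84.5% of the TIMP level and MMP24 54.2% of the MMP level, whereas ADAMTS15 held 23.5% of the ADAMTS level. The length used was that of all annotated exons of a gene merged, such as 16168 bases for ADAM10 and 1541 for TIMP1. These ranks and shares depend on that choice.

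**Figure D1:**
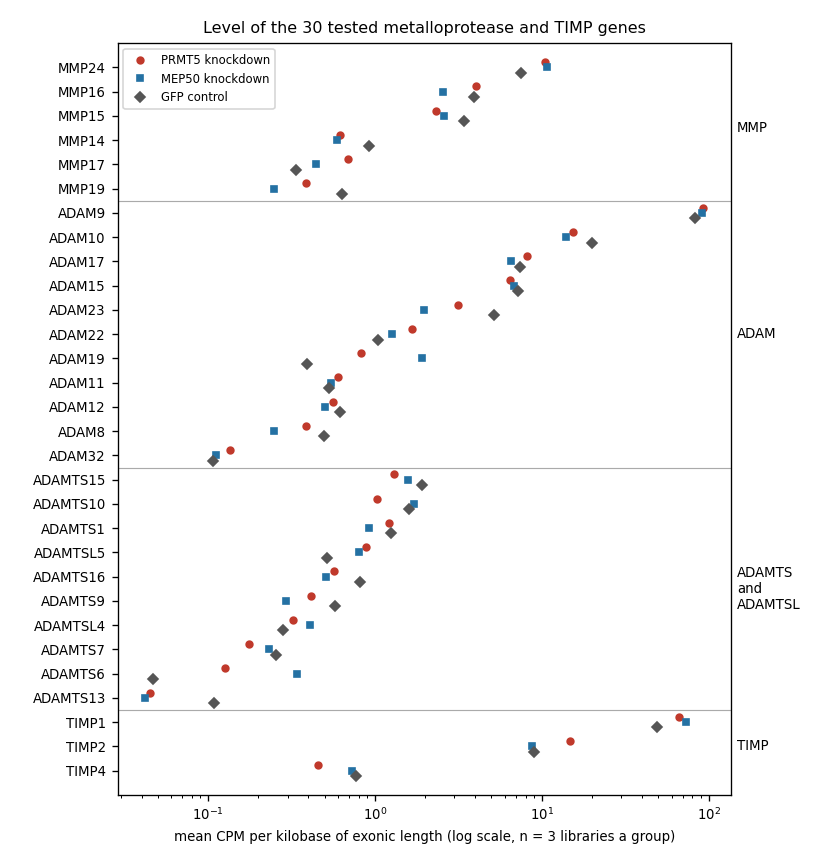
Level per kilobase of exon (CPM per kb, log axis) of the members with enough reads to be tested, by subfamily, in the PRMT5 knockdown, the MEP50 knockdown and the GFP control (symbols, group means of 3 libraries). ADAM9 and TIMP1 stand highest at 89.1 and 62.8 CPM per kb over the 9 libraries, and ADAMTS13 lowest at 0.0651 CPM per kb.

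Expression was compared with edgeR's quasi-likelihood test over 14582 genes, with p-values adjusted by Benjamini and Hochberg's method. A gene is said to rise or fall when its adjusted p is below 0.05, and fold changes are given on the log2 scale with the SE from the same fit. In the PRMT5 knockdown against the control, 10 of the 30 tested members rose and 10 fell, where 26.1% of all genes rose and 24.9% fell (51.0% in either direction). In the MEP50 knockdown against the control, 8 rose and 13 fell, where 26.5% of all genes rose and 25.2% fell (51.7% in either direction). The called share of members, 66.7% and 70%, lay above these background shares. The median absolute log2 fold change of the members was 0.52 after PRMT5 knockdown and 0.49 after MEP50 knockdown, against 0.21 and 0.23 over all genes tested. Changes of at least 2-fold were called upward in 3 members and downward in none in the PRMT5 knockdown, where 3.52% of all genes rose and 3.73% fell by that much (7.25% in all). In the MEP50 knockdown 2 members rose and 4 fell at least 2-fold, where 3.74% of all genes did so upward and 3.77% downward (7.51% in all). Their median signed change was -0.09 after PRMT5 knockdown and -0.12 after MEP50 knockdown, beside 0.00 over all genes. These shares hold for the 30 members with enough reads to be tested and not for all 69. They are descriptive, because the family was chosen with earlier results of these data known.

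The subfamilies gave different counts. Of 6 MMPs, 2 rose and 3 fell in the PRMT5 knockdown (median log2 fold change -0.25), and 1 rose and 4 fell in the MEP50 knockdown (median -0.51). Of 11 ADAMs, 4 rose and 3 fell in the PRMT5 knockdown (median 0.13), and 3 rose and 4 fell in the MEP50 knockdown (median -0.07). ADAMs thus split in both knockdowns. Of the 8 tested ADAMTS genes proper, 1 rose and 4 fell in the PRMT5 knockdown (median -0.52), and 1 rose and 5 fell in the MEP50 knockdown (median -0.37). Of the 2 ADAMTSL genes, 1 rose in the PRMT5 knockdown and both rose in the MEP50 knockdown, and none fell. Of the 3 tested TIMPs, 2 rose in the PRMT5 knockdown, 1 rose in the MEP50 knockdown and none fell in either. Without the read filter, 2 subfamily medians against the control changed sign: that of the MMPs in the PRMT5 knockdown was 0.02 and that of the ADAMs in the MEP50 knockdown 0.02. The difference between subfamilies was not tested.

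**Figure D2:**
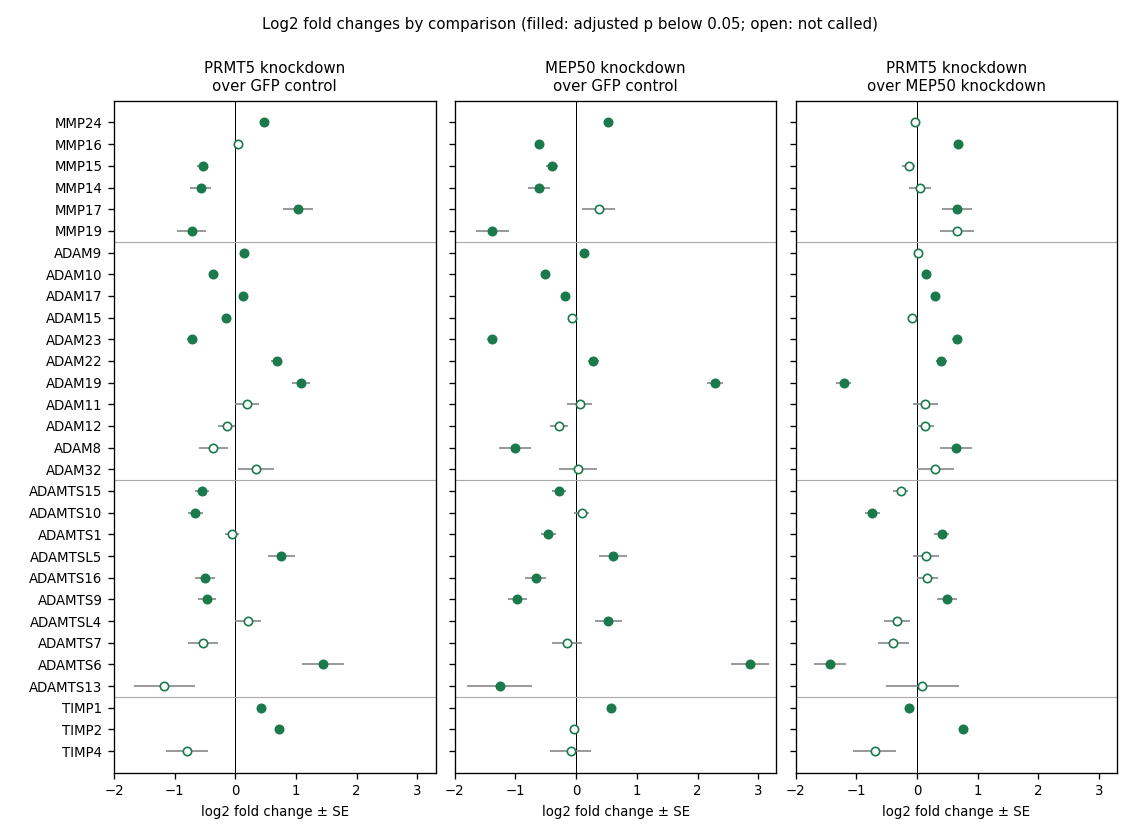
Log2 fold change with SE (bars) of each tested member for the PRMT5 knockdown over the GFP control, the MEP50 knockdown over the GFP control and the PRMT5 knockdown over the MEP50 knockdown, by subfamily, with filled points for an adjusted p below 0.05 by edgeR's quasi-likelihood test. ADAMTS6 and ADAM19 lie farthest to the right, at 2.86 and 2.29 in the MEP50 knockdown, and ADAM23 and MMP19 reach -1.39 and -1.38 there.

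Set side by side, the calls of the knockdowns fell into these classes. The genes that rose in each were ADAM9, ADAM19, ADAM22, ADAMTS6, ADAMTSL5, MMP24 and TIMP1 (7 members). Those that fell in each were ADAM10, ADAM23, ADAMTS9, ADAMTS15, ADAMTS16, MMP14, MMP15 and MMP19 (8 members). MMP17 and TIMP2 rose, and ADAM15 and ADAMTS10 fell, in the PRMT5 knockdown without a call in the MEP50 knockdown. ADAMTSL4 rose, and ADAM8, ADAMTS1, ADAMTS13 and MMP16 fell, in the MEP50 knockdown without a call in the PRMT5 knockdown. ADAM17 rose in the PRMT5 knockdown and fell in the MEP50 knockdown. ADAM11, ADAM12, ADAM32, ADAMTS7 and TIMP4 passed the test in neither. Over all 14582 genes tested, 17.7% rose in each knockdown, 15.5% fell in each and 2.63% were called in opposite directions, beside 7, 8 and 1 of the 30 members. Because both comparisons use the same control libraries, shared direction is not independent evidence, and nothing is read from these joint counts.

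Of the 30 tested members, ADAM19 and ADAMTS6 had the largest rises. MMP9, which was below the read filter, is described further on. ADAM19, also called meltrin beta, is an active sheddase known for cleaving neuregulin and for its role in heart development in the mouse. It had 5.17, 6.29 and 7.51 CPM in libraries of the PRMT5 knockdown, 14.3, 14.9 and 15.1 CPM in the MEP50 knockdown libraries and 3.03, 3.14 and 2.86 CPM in the control libraries. The 3 groups did not overlap, and the MEP50 knockdown was highest. The log2 fold change against the control was 1.08 ± 0.144 in the PRMT5 knockdown (SE, edgeR adjusted p = 3.7e-08) and 2.29 ± 0.135 in the MEP50 knockdown (edgeR adjusted p = 5.42e-18), the second a 4.9-fold rise. ADAM19 shares 0.805% of its exonic length with the opposite-strand gene CYFIP2, which rose in each knockdown and averaged 52.4 ± 2.45 CPM in the PRMT5 knockdown, 55.2 ± 3.34 CPM in the MEP50 knockdown and 19.3 ± 0.0695 CPM in the control, and the part of that overlap in the ADAM19 counts was not tested.

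ADAMTS6, a secreted protease linked to fibrillin microfibrils, had 0.829, 1 and 1.42 CPM in libraries of the PRMT5 knockdown, 2.95, 2.62 and 3.24 CPM in the MEP50 knockdown libraries and 0.399, 0.472 and 0.326 CPM in the control libraries. The order of the groups was that of ADAM19, again with no overlap. The counts behind it were small, 97, 209 and 33 reads in the PRMT5 knockdown, MEP50 knockdown and control. Against the control the log2 fold change was 1.44 ± 0.343 in the PRMT5 knockdown (edgeR adjusted p = 0.000529) and 2.86 ± 0.311 in the MEP50 knockdown (edgeR adjusted p = 2.8e-10). From the reads alone, the ratio to the control was 2.75 in the PRMT5 knockdown (95% interval 1.83 to 4.21) and 7.4 in the MEP50 knockdown (5.11 to 11), and these intervals cover counting error only.

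ADAM19 and ADAMTS6 both lie on chromosome 5, far apart, and their promoters differ in the letters searched. The 250 bases before the RefSeq starts (GRCh38.p14, minus strand for both, chr5:157575776-157576025 for ADAM19 and chr5:65481921-65482170 for ADAMTS6) are printed 5′ to 3′ because these rose most among the tested members. Capitals mark an E-box match 184 bases before the ADAM19 start, and the ADAMTS6 stretch held none of the motifs.
ADAM19: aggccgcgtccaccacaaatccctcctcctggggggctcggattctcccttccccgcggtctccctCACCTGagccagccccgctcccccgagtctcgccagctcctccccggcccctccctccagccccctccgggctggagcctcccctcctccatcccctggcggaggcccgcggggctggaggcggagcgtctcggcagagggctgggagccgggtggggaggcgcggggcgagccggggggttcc
ADAMTS6: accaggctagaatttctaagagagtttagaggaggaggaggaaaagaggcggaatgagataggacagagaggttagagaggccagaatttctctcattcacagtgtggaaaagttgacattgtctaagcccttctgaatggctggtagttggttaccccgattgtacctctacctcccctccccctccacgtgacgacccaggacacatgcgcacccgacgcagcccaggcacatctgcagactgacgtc

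The sheddases ADAM9, ADAM10 and ADAM17 changed by smaller amounts at higher levels. ADAM9, which sheds among others heparin-binding EGF in laboratory assays, had 664, 649 and 606 CPM in libraries of the PRMT5 knockdown, 617, 633 and 644 CPM in the MEP50 knockdown libraries and 578, 581 and 570.3 CPM in the control libraries. Every knockdown library lay above every control library. The rise was 0.15 ± 0.0288 in the PRMT5 knockdown (log2, edgeR adjusted p = 3.02e-05) and 0.13 ± 0.0289 in the MEP50 knockdown (edgeR adjusted p = 0.000182). ADAM10, the main sheddase of Notch receptors and cadherins, had 259.8, 249 and 243 CPM in libraries of the PRMT5 knockdown, 229.6, 226 and 223 CPM in the MEP50 knockdown libraries and 323, 324 and 322 CPM in the control libraries. It was lower in all knockdown libraries, and lowest in the MEP50 knockdown. ADAM10 fell by 0.37 ± 0.0295 in the PRMT5 knockdown (log2, edgeR adjusted p = 7.96e-14) and by 0.51 ± 0.0299 in the MEP50 knockdown (edgeR adjusted p = 3.67e-18).

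ADAM17, the enzyme that releases TNF and most EGF receptor ligands, moved in opposite directions. It had 88.9, 87.1 and 85.8 CPM in libraries of the PRMT5 knockdown, 70, 70.8 and 71.1 CPM in the MEP50 knockdown libraries and 78, 77.6 and 84.1 CPM in the control libraries. The control libraries lay between the knockdowns with no overlap. Its log2 fold change was 0.13 ± 0.0417 in the PRMT5 knockdown (edgeR adjusted p = 0.0105) and -0.18 ± 0.0432 in the MEP50 knockdown (edgeR adjusted p = 0.000651). The rise lost its call, at a log2 fold change of 0.10 each time, without PRMT5 knockdown replicate 1 (edgeR adjusted p = 0.0742), without control replicate 1 (edgeR adjusted p = 0.0731) and without control replicate 2 (edgeR adjusted p = 0.0831). IAH1, annotated on the opposite strand, covers 12.3% of the exonic length of ADAM17, and the strand setting of the counting is not given in the sources used here. IAH1 rose in each knockdown and averaged 24.9, 27.7 and 20.9 CPM in the PRMT5 knockdown, MEP50 knockdown and control, and its part in the ADAM17 counts was not tested.

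ADAM15, an adhesion-type ADAM with an active site, averaged 42.5 ± 4.26 CPM in the PRMT5 knockdown, 45 ± 1.35 CPM in the MEP50 knockdown and 47.3 ± 1.43 CPM in the control. Its fall in the PRMT5 knockdown (log2 fold change -0.15 ± 0.0585, edgeR adjusted p = 0.0287) came with overlapping libraries. That call was lost without PRMT5 knockdown replicate 1 (log2 fold change -0.10), without PRMT5 knockdown replicate 3 (-0.15) and without control replicate 2 (-0.13), with edgeR adjusted p of 0.188, 0.0504 and 0.114. Without PRMT5 knockdown replicate 2 the value was -0.23. The log2 fold change of ADAM15 in the MEP50 knockdown was -0.07 (edgeR adjusted p = 0.319).

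ADAM8, known from leukocytes and tumour cells, had 2.09, 1.74 and 1.7 CPM in libraries of the PRMT5 knockdown, 1.5, 1.03 and 1.02 CPM in the MEP50 knockdown libraries and 2.71, 2.09 and 2.32 CPM in the control libraries. The MEP50 knockdown libraries were the lowest, apart from both other groups. It fell by 1.01 ± 0.258 in the MEP50 knockdown (log2, edgeR adjusted p = 0.00104), and its log2 fold change in the PRMT5 knockdown was -0.36 (edgeR adjusted p = 0.202). ADAM12, a sheddase of growth factor ligands that is high in placenta, averaged 5.5 ± 0.332 CPM in the PRMT5 knockdown, 4.97 ± 0.549 CPM in the MEP50 knockdown and 6.05 ± 0.944 CPM in the control. It passed the test in neither knockdown (edgeR adjusted p = 0.448 and 0.114), although without control replicate 2 it fell in the MEP50 knockdown (value -0.39 on the log2 scale, edgeR adjusted p = 0.0463).

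The ADAMs without an active site included ADAM23 and ADAM22, which in neurons take part in adhesion and bind the secreted protein LGI1. ADAM23 had 20.8, 20.6 and 19.3 CPM in libraries of the PRMT5 knockdown, 13.3, 11.5 and 13.5 CPM in the MEP50 knockdown libraries and 30.9, 33.8 and 35.5 CPM in the control libraries. The groups were stepped without overlap, with the MEP50 knockdown lowest. ADAM23 fell by 0.72 ± 0.0737 in the PRMT5 knockdown (log2, edgeR adjusted p = 6e-11) and by 1.39 ± 0.0802 in the MEP50 knockdown (edgeR adjusted p = 3.11e-18). ADAM22 went the other way, at 20.5 ± 1.53 CPM in the PRMT5 knockdown, 15.5 ± 0.942 CPM in the MEP50 knockdown and 12.8 ± 1.33 CPM in the control. Its log2 fold change was 0.68 ± 0.0884 in the PRMT5 knockdown (edgeR adjusted p = 2.11e-08) and 0.28 ± 0.0928 in the MEP50 knockdown (edgeR adjusted p = 0.0107). The smaller rise lost its call without MEP50 knockdown replicate 3 (log2 fold change 0.22, edgeR adjusted p = 0.0807) and without control replicate 2 (0.23, edgeR adjusted p = 0.0732). ADAM11, a brain-enriched member, averaged 2.88 ± 0.347, 2.62 ± 0.201 and 2.54 ± 0.419 CPM in the PRMT5 knockdown, MEP50 knockdown and control, and ADAM32, best known from testis, 1.36 ± 0.395, 1.12 ± 0.169 and 1.08 ± 0.267 CPM. Neither of these was called.

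The promoter of ADAM23, the member with the largest called fall, is printed as the 250 bases before its RefSeq start (GRCh38.p14, chr2:206443282-206443531, plus strand). Capitals mark a pair of GC-box matches 87 and 196 bases before the start.
ADAM23: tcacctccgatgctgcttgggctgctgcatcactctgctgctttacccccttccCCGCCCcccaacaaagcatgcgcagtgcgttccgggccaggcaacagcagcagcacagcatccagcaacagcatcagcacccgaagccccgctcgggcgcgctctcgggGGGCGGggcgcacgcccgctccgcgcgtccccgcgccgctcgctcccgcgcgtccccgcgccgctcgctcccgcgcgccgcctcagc

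**Figure D3:**
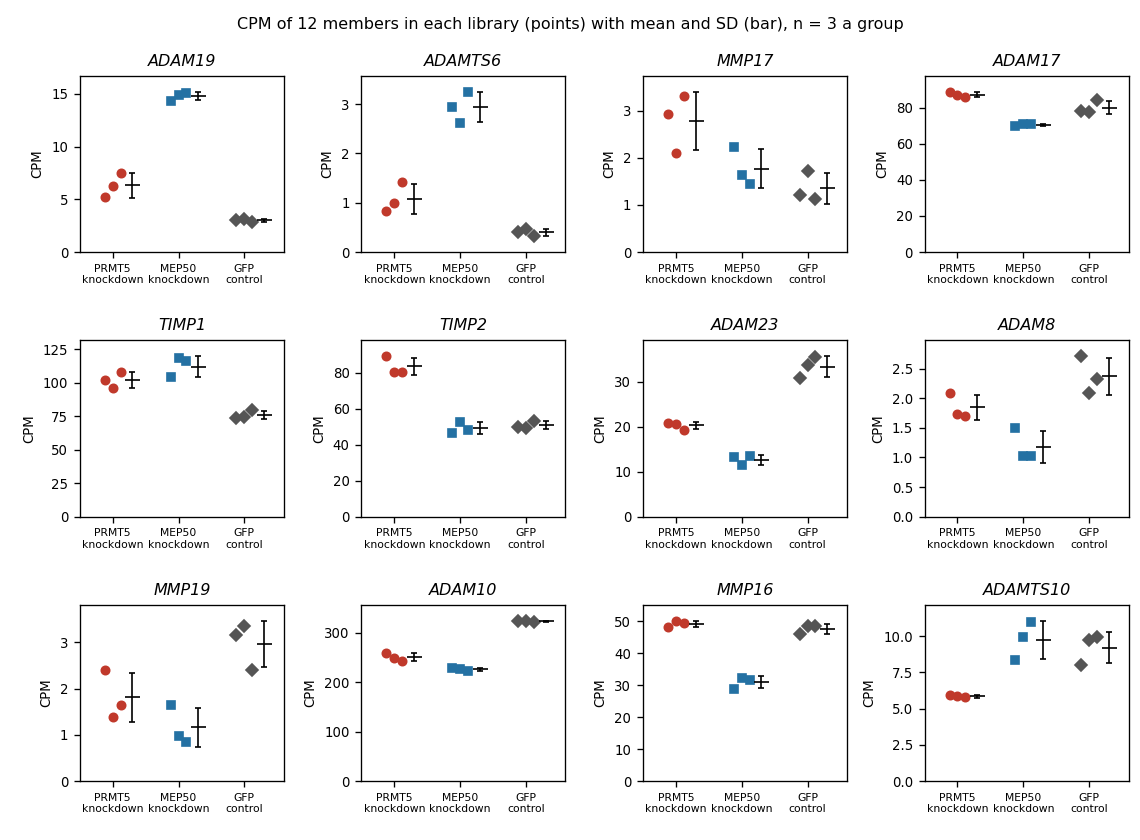
Level in each of the 9 libraries (CPM, points) of 12 members, with the PRMT5 knockdown, the MEP50 knockdown and the GFP control from left to right and the mean and SD of each group as a bar (n = 3 each). ADAM19 and ADAMTS6 step up in the PRMT5 knockdown and again in the MEP50 knockdown, ADAM23 steps down in the same order, and TIMP2 is high in the PRMT5 knockdown libraries, at 80.7 to 89.2 CPM.

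Among the membrane MMPs, MMP24 rose and MMP14 and MMP15 fell in each knockdown. MMP24, also called MT5-MMP and best known from neurons, had 46.9, 44.2 and 47.4 CPM in libraries of the PRMT5 knockdown, 47.5, 45.3 and 49.6 CPM in the MEP50 knockdown libraries and 34, 31.5 and 33.6 CPM in the control libraries. Every knockdown library lay above every control library. The rise was 0.48 ± 0.0566 in the PRMT5 knockdown (log2, edgeR adjusted p = 2.03e-09) and 0.52 ± 0.0575 in the MEP50 knockdown (edgeR adjusted p = 3.44e-10). The opposite-strand gene MMP24OS covers 18.1% of the exonic length of MMP24. It averaged 28.6 ± 1.95, 31.9 ± 1.71 and 28.4 ± 0.704 CPM in the PRMT5 knockdown, MEP50 knockdown and control, with log2 fold changes of 0.01 (edgeR adjusted p = 0.904) and 0.17 (edgeR adjusted p = 0.0287) for the knockdowns, and its part in the MMP24 counts was not tested.

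MMP16, or MT3-MMP, had 48.1, 50 and 49.3 CPM in libraries of the PRMT5 knockdown, 28.7, 32.1 and 31.7 CPM in the MEP50 knockdown libraries and 45.8, 48.5 and 48.5 CPM in the control libraries. The MEP50 knockdown was low, while the other groups overlapped. MMP16 fell by 0.62 ± 0.0575 in the MEP50 knockdown (log2, edgeR adjusted p = 3.68e-12), and its log2 fold change in the PRMT5 knockdown was 0.05 ± 0.0538 (edgeR adjusted p = 0.51). MMP15, or MT2-MMP, had 9.71, 10.3 and 11.1 CPM in libraries of the PRMT5 knockdown, 10.6, 13 and 11 CPM in the MEP50 knockdown libraries and 14.4, 16 and 15 CPM in the control libraries. The control libraries were all above those of the knockdowns. MMP15 fell by 0.54 ± 0.0974 in the PRMT5 knockdown (log2, edgeR adjusted p = 1e-05) and by 0.40 ± 0.099 in the MEP50 knockdown (edgeR adjusted p = 0.000765).

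MMP14, or MT1-MMP, which activates pro-MMP2 and cuts pericellular collagen, averaged 2.77 ± 0.156 CPM in the PRMT5 knockdown, 2.66 ± 0.298 CPM in the MEP50 knockdown and 4.11 ± 0.37 CPM in the control. MMP14 fell by 0.57 ± 0.176 in the PRMT5 knockdown (log2, edgeR adjusted p = 0.00628) and by 0.62 ± 0.182 in the MEP50 knockdown (edgeR adjusted p = 0.00407), with no overlap with the control libraries. Its substrate gene MMP2 had 2 reads in all 9 libraries, and was looked up after the MMP14 values were seen. MMP17, a GPI-anchored MMP, had 2.92, 2.1 and 3.31 CPM in libraries of the PRMT5 knockdown, 2.22, 1.64 and 1.44 CPM in the MEP50 knockdown libraries and 1.2, 1.72 and 1.12 CPM in the control libraries. The PRMT5 knockdown was above the control, and the MEP50 knockdown overlapped both. For MMP17 the log2 fold change was 1.03 ± 0.247 in the PRMT5 knockdown (edgeR adjusted p = 0.000557) and 0.37 ± 0.268 in the MEP50 knockdown (edgeR adjusted p = 0.263).

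MMP19, the secreted MMP with enough reads, had 2.41, 1.39 and 1.64 CPM in libraries of the PRMT5 knockdown, 1.64, 0.982 and 0.845 CPM in the MEP50 knockdown libraries and 3.15, 3.34 and 2.39 CPM in the control libraries. The MEP50 knockdown lay below the control, and 1 PRMT5 knockdown library reached into the control range. Against the control it changed by -0.72 ± 0.242 in the PRMT5 knockdown (log2, edgeR adjusted p = 0.0117) and -1.38 ± 0.268 in the MEP50 knockdown (edgeR adjusted p = 3.22e-05). In the PRMT5 knockdown the call was lost without replicate 2 of that group (-0.57, edgeR adjusted p = 0.0778) and without control replicate 2 (-0.63, edgeR adjusted p = 0.0641). TMEM198B, on the opposite strand, overlaps 17.4% of the exonic length of MMP19. It averaged 3.6 ± 0.376, 3.19 ± 0.346 and 5.24 ± 0.333 CPM in the PRMT5 knockdown, MEP50 knockdown and control, fell by 0.55 and by 0.71 on the log2 scale in the knockdowns, and its part in the MMP19 counts was not tested.

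Of the tested ADAMTS proteoglycanases, which cut aggrecan and versican, 2 of 3 fell in the PRMT5 knockdown and 3 of 3 in the MEP50 knockdown. Of all genes tested, 24.9% and 25.2% fell, and a count over 3 genes is not read further. ADAMTS1 had 8.84, 8.55 and 8.36 CPM in libraries of the PRMT5 knockdown, 6.19, 7.11 and 6.13 CPM in the MEP50 knockdown libraries and 8.06, 10.2 and 8.22 CPM in the control libraries. The MEP50 knockdown stood apart below both other groups. ADAMTS1 fell by 0.46 ± 0.124 in the MEP50 knockdown (log2, edgeR adjusted p = 0.00209), and its log2 fold change in the PRMT5 knockdown was -0.05 (edgeR adjusted p = 0.769). ADAMTS9 averaged 4.44 ± 0.21 CPM in the PRMT5 knockdown, 3.13 ± 0.0897 CPM in the MEP50 knockdown and 6.12 ± 0.982 CPM in the control. ADAMTS9 fell by 0.47 ± 0.148 in the PRMT5 knockdown (log2, edgeR adjusted p = 0.00808) and by 0.97 ± 0.16 in the MEP50 knockdown (edgeR adjusted p = 2.34e-06). Without control replicate 2 the value in the PRMT5 knockdown was -0.36 (edgeR adjusted p = 0.077).

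ADAMTS15 had 8.6, 6.35 and 7.42 CPM in libraries of the PRMT5 knockdown, 8.89, 8.79 and 9.12 CPM in the MEP50 knockdown libraries and 10.7, 11.5 and 10.4 CPM in the control libraries. It was the proteoglycanase whose lower group was the PRMT5 knockdown. ADAMTS15 fell by 0.55 ± 0.113 there (log2, edgeR adjusted p = 8.38e-05) and by 0.28 ± 0.114 in the MEP50 knockdown (edgeR adjusted p = 0.0371). The call in the MEP50 knockdown was lost without any 1 of its 3 libraries, without control replicate 1 and without control replicate 2, with log2 fold changes of -0.24 to -0.30 and edgeR adjusted p of 0.0552 to 0.127.

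The fibrillin-linked ADAMTS10, closest relative of ADAMTS6, had another pattern. It had 5.96, 5.84 and 5.77 CPM in libraries of the PRMT5 knockdown, 8.36, 9.91 and 11 CPM in the MEP50 knockdown libraries and 7.98, 9.71 and 9.92 CPM in the control libraries. The PRMT5 knockdown was lowest, and the other groups overlapped. ADAMTS10 fell by 0.66 ± 0.123 in the PRMT5 knockdown (log2, edgeR adjusted p = 2.19e-05), and its log2 fold change in the MEP50 knockdown was 0.09 ± 0.119 (edgeR adjusted p = 0.573). ADAMTS16, a less studied protease for which fibronectin has been given as a substrate, averaged 3.35 ± 0.093 CPM in the PRMT5 knockdown, 3 ± 0.325 CPM in the MEP50 knockdown and 4.76 ± 0.408 CPM in the control. ADAMTS16 fell by 0.50 ± 0.163 in the PRMT5 knockdown (log2, edgeR adjusted p = 0.00922) and by 0.67 ± 0.171 in the MEP50 knockdown (edgeR adjusted p = 0.00105).

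ADAMTS13, the plasma protease that trims von Willebrand factor, was near the limit of detection. It had 0.0395, 0.355 and 0.379 CPM in libraries of the PRMT5 knockdown, 0.242, 0.0935 and 0.387 CPM in the MEP50 knockdown libraries and 0.718, 0.371 and 0.761 CPM in the control libraries, from 24, 18 and 50 reads. The groups overlapped. Log2 fold changes were -1.17 ± 0.507 in the PRMT5 knockdown (edgeR adjusted p = 0.0516) and -1.26 ± 0.538 in the MEP50 knockdown (edgeR adjusted p = 0.0475). DESeq2 (adjusted p = 0.0926) and the fit without the read filter (edgeR adjusted p = 0.0569) did not call the fall in the MEP50 knockdown. Nor did the fits without MEP50 knockdown replicate 1 (-1.23) or 2 (-0.91), without control replicate 1 (-1.14) or 3 (-1.07), or without PRMT5 knockdown replicate 2 (-1.27). In the PRMT5 knockdown, the fits without replicate 3 of that group (-1.53, edgeR adjusted p = 0.0383) and without control replicate 2 (-1.45, edgeR adjusted p = 0.0285) did call a fall. So did upper-quartile scaling (-1.18, edgeR adjusted p = 0.0496) and the fit of the 6 libraries compared (-1.17, edgeR adjusted p = 0.0474), so the value lay at the threshold. ADAMTS7, a COMP-cleaving protease, averaged 1.36 ± 0.158, 1.79 ± 0.374 and 1.99 ± 0.283 CPM in the PRMT5 knockdown, MEP50 knockdown and control and was not called (edgeR adjusted p = 0.0744 and 0.657).

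ADAMTSL4 and ADAMTSL5 are ADAMTS-like proteins without a protease domain that associate with microfibrils. ADAMTSL5 averaged 3.21 ± 0.299 CPM in the PRMT5 knockdown, 2.89 ± 0.897 CPM in the MEP50 knockdown and 1.88 ± 0.49 CPM in the control. Its log2 fold change was 0.76 ± 0.22 in the PRMT5 knockdown (edgeR adjusted p = 0.00385) and 0.61 ± 0.229 in the MEP50 knockdown (edgeR adjusted p = 0.0246), where the libraries overlapped with the control. The second call was lost without MEP50 knockdown replicate 2 (0.36, edgeR adjusted p = 0.253) and without control replicate 1 (0.42, edgeR adjusted p = 0.159). ADAMTSL4 averaged 2.09 ± 0.267 CPM in the PRMT5 knockdown, 2.63 ± 0.0327 CPM in the MEP50 knockdown and 1.81 ± 0.112 CPM in the control. Its rise in the MEP50 knockdown (0.53 ± 0.219, edgeR adjusted p = 0.0387) was lost with DESeq2 (adjusted p = 0.0559), without the read filter (edgeR adjusted p = 0.0864) and without any 1 of the MEP50 knockdown or control libraries, with log2 fold changes of 0.48 to 0.56. ADAMTSL4-AS1, on the opposite strand, covers 11.4% of the exonic length of ADAMTSL4. It had 2, 9 and 4 reads in the PRMT5 knockdown, MEP50 knockdown and control, and its part in the ADAMTSL4 counts was not tested.

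Against the control, the TIMP calls were rises, of TIMP1 in each knockdown and of TIMP2 in the PRMT5 knockdown. TIMP1, a broad inhibitor that is also an extracellular signal, had 102, 95.9 and 108 CPM in libraries of the PRMT5 knockdown, 104, 118 and 116 CPM in the MEP50 knockdown libraries and 73.7, 74.5 and 79.5 CPM in the control libraries. Every knockdown library lay above every control library. TIMP1 rose by 0.43 ± 0.0468 in the PRMT5 knockdown (log2, edgeR adjusted p = 8.14e-10) and by 0.57 ± 0.0472 in the MEP50 knockdown (edgeR adjusted p = 7.57e-13). TIMP2, which at the cell surface both inhibits MMP14 and helps it to activate pro-MMP2, had 89.2, 80.7 and 80.7 CPM in libraries of the PRMT5 knockdown, 46.6, 52.8 and 48.2 CPM in the MEP50 knockdown libraries and 49.8, 49.1 and 53.2 CPM in the control libraries. The PRMT5 knockdown stood apart, and the other groups overlapped. For TIMP2 the log2 fold change was 0.72 ± 0.051 in the PRMT5 knockdown (edgeR adjusted p = 1.98e-15) and -0.04 ± 0.0541 in the MEP50 knockdown (edgeR adjusted p = 0.527). An opposite-strand transcript, not analysed here, covers 6.5% of the exonic length of TIMP2, and its part was not tested.

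TIMP4, best known from heart, had 1.1, 0.548 and 0.6 CPM in libraries of the PRMT5 knockdown, 1.55, 0.888 and 1.16 CPM in the MEP50 knockdown libraries and 1.4, 0.775 and 1.67 CPM in the control libraries. All groups overlapped. SYN2, on the opposite strand, covers 10.3% of its exonic length, and its part was not tested. The log2 fold change of TIMP4 was -0.79 ± 0.346 in the PRMT5 knockdown (edgeR adjusted p = 0.0556) and -0.09 ± 0.334 in the MEP50 knockdown (edgeR adjusted p = 0.845). A fall in the PRMT5 knockdown was called without replicate 1 of that group (-1.15, edgeR adjusted p = 0.0146), without control replicate 2 (-1.06, edgeR adjusted p = 0.0153) and with a filter at 1 CPM in 3 libraries (-0.79, edgeR adjusted p = 0.0417).

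Summed per kilobase over its members, the TIMP level was 81.6 ± 4.16 CPM per kb in the PRMT5 knockdown, 82.4 ± 5.23 in the MEP50 knockdown and 59 ± 2.6 in the control (SD, n = 3). The knockdown sums were close, but their make-up differed. TIMP2 stood at 14.8 CPM per kb in the PRMT5 knockdown, 8.73 in the MEP50 knockdown and 9 in the control, and TIMP1 at 66.3, 73 and 49.3 CPM per kb in the same order. The ADAM sum was 130.0 ± 4.86, 125 ± 1.99 and 126 ± 0.488 CPM per kb in the PRMT5 knockdown, MEP50 knockdown and control, and the MMP sum 18.8 ± 0.691, 17.3 ± 0.255 and 16.8 ± 0.0714. The ADAMTS sum was lowest in the PRMT5 knockdown, at 6.14 ± 0.168 CPM per kb, beside 6.85 ± 0.406 in the MEP50 knockdown and 7.41 ± 0.399 in the control. The ratio of the TIMP sum to the sum of all other members was 0.521, 0.493 and 0.566 in the PRMT5 knockdown libraries, 0.521, 0.575 and 0.557 in the MEP50 knockdown libraries and 0.384, 0.379 and 0.412 in the control libraries, with no overlap between either knockdown and the control. With ADAM9 left out of the sum, the ratio averaged 1.31 ± 0.0609, 1.42 ± 0.0767 and 0.876 ± 0.0316 in the same order. The other members in these ratios include the ADAMs without an active site and the ADAMTSL genes, which have no protease domain. These sums and ratios describe RNA, depend on the exon lengths used, are led by ADAM9 and TIMP1, and were not tested.

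**Figure D4:**
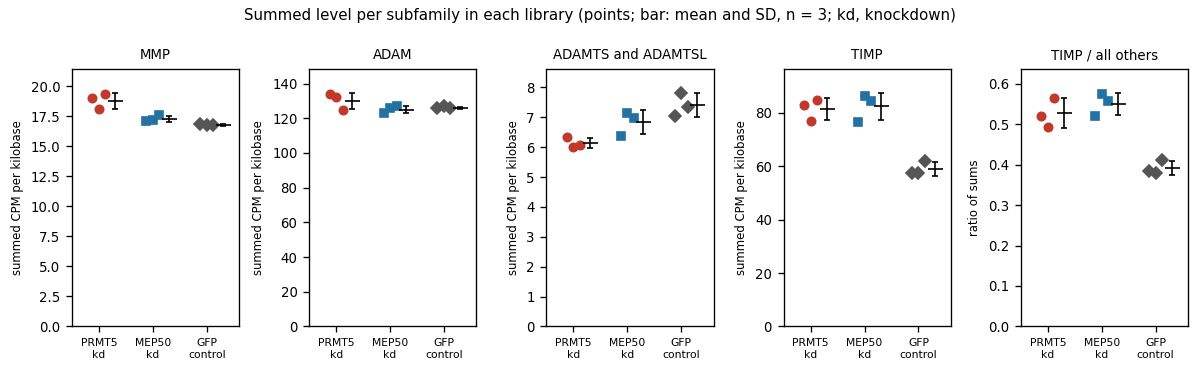
Summed level per kilobase (CPM per kb) of each subfamily, and the ratio of the TIMP sum to all other members, in the 9 libraries (points, with mean and SD as a bar, n = 3 each), for the PRMT5 knockdown, the MEP50 knockdown and the GFP control from left to right. TIMP sums average 81.6 and 82.4 CPM per kb in the knockdowns and 59 in the control, while the ADAM sums average 130.0, 125 and 126.

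Set directly against each other, the knockdowns differed in 14 of the 30 members. In the PRMT5 knockdown against the MEP50 knockdown, 10 members were higher and 4 lower, where 19.2% of all genes were higher and 20.5% lower (39.7% in either direction). At least 2-fold differences were called in 0 higher and 2 lower members, ADAM19 and ADAMTS6, where 1.54% of all genes were higher and 1.65% lower by that much (3.19% in all). The median absolute log2 difference was 0.32 for the members and 0.18 for all genes tested, and the signed medians were 0.14 and 0.00. The 4 lower members were ADAM19, ADAMTS6, ADAMTS10 and TIMP1. The log2 difference was -1.21 ± 0.12 for ADAM19 (edgeR adjusted p = 6.28e-11), -1.43 ± 0.263 for ADAMTS6 (edgeR adjusted p = 2.62e-05) and -0.74 ± 0.125 for ADAMTS10 (edgeR adjusted p = 5.53e-06). For TIMP1 it was -0.14 ± 0.046 (edgeR adjusted p = 0.0141), with overlapping libraries, and this call was lost without PRMT5 knockdown replicate 2 (-0.10), MEP50 knockdown replicate 2 (-0.12) or MEP50 knockdown replicate 3 (-0.12).

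Among the higher members, TIMP2 led with a log2 difference of 0.76 ± 0.052 (edgeR adjusted p = 1.87e-15), followed by MMP16 at 0.67 ± 0.0571 (edgeR adjusted p = 1.18e-12) and ADAM23 at 0.66 ± 0.0832 (edgeR adjusted p = 1.73e-08). The direct difference was 0.30 ± 0.0428 for ADAM17 (edgeR adjusted p = 2.15e-07) and 0.15 ± 0.03 for ADAM10 (edgeR adjusted p = 0.000112), so both main sheddases were lower in the MEP50 knockdown. ADAM22 (0.40), ADAMTS1 (0.41) and ADAMTS9 (0.50) were also higher in the PRMT5 knockdown. MMP17 (0.66 ± 0.245, edgeR adjusted p = 0.0276) lost its call without PRMT5 knockdown replicate 1 (0.62) or 3 (0.50) and without MEP50 knockdown replicate 2 (0.61) or 3 (0.52). ADAM8 (0.65 ± 0.263, edgeR adjusted p = 0.0469) lost its call in 10 of 17 alternatives, with an adjusted p of up to 0.162. These were DESeq2, the fit without the read filter, the fit of 6 libraries, and those without any 1 of the PRMT5 knockdown libraries, MEP50 knockdown replicate 2 or 3, or control replicate 1 or 3, at log2 differences of 0.54 to 0.69. Conversely, MMP19 was called higher without PRMT5 knockdown replicate 2 (0.82) or MEP50 knockdown replicate 1 (0.97), and ADAMTS15 (-0.39) and TIMP4 (-1.06) were called lower without PRMT5 knockdown replicate 1. By subfamily, 2 of 6 MMPs were higher and 0 lower, 5 of 11 ADAMs higher and 1 lower, 2 of 10 ADAMTS and ADAMTSL genes higher and 2 lower, and 1 of 3 TIMPs higher and 1 lower.

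Below the read filter, 4 members had at least 10 reads in a group. MMP9, the secreted gelatinase B, had 10, 6 and 12 reads in the PRMT5 knockdown libraries, 0, 4 and 1 in the MEP50 knockdown libraries and 1, 0 and 0 in the control libraries. The PRMT5 knockdown libraries were all above the others. SLC12A5-AS1, on the opposite strand, overlaps 18.4% of the exonic length of MMP9, and its part in these reads was not tested. The ratio of the PRMT5 knockdown to the control, 28 reads against 1, was 26.2 with a 95% counting interval of 4.33 to 1071. Without the filter the log2 fold change was 4.26 (edgeR adjusted p = 0.000311), and MMP9 was the only one of the 23 members so added that was called against the control or between the knockdowns. The authors' deposited table also lists MMP9 in the PRMT5 knockdown, with log2 fold changes of 0.74 by DESeq2 and 4.29 by edgeR. The ADAM21 gene, a testis-type ADAM, had 11, 14 and 24 reads in the PRMT5 knockdown, MEP50 knockdown and control, MMP11, a stromelysin-like MMP cut by furin inside the cell, had 11, 6 and 6, and ADAMTS12, a COMP-cleaving protease, had 10, 1 and 1.

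The authors' deposited tables of called genes, as far as they hold members, gave the same directions. The table for PRMT5 lists 20 members (11 higher, 9 lower), which include 19 of the 20 called here, all but ADAM15, and MMP9. The table for MEP50 lists 17 members (6 higher, 11 lower), all called here, and leaves out ADAMTS13, ADAMTS15, ADAMTSL4 and ADAMTSL5.

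Genes that act on these proteases or are cut by them were read from the same fit, and 50 of 68 listed genes were tested. The lists, here and below, were chosen with earlier results of these data known. Their shares beside those of all genes are therefore descriptive and not independent evidence of enrichment. In the PRMT5 knockdown 24 rose and 14 fell, 76% of the 50 in either direction, where 51.0% of all genes tested were called. In the MEP50 knockdown 27 rose and 16 fell, 86% in either direction, where 51.7% of all genes tested were called. Of the furin-like convertases that activate many of the members, 1 of 4 rose and 2 fell in the PRMT5 knockdown. In the MEP50 knockdown 3 rose and none fell. Of all genes tested, 26.1% rose and 24.9% fell in the PRMT5 knockdown, and 26.5% rose and 25.2% fell in the MEP50 knockdown. A count over 4 genes is not read further. FURIN averaged 66.7 ± 4.5 CPM in the PRMT5 knockdown, 133 ± 9.44 CPM in the MEP50 knockdown and 116 ± 3.24 CPM in the control, with log2 fold changes of -0.81 ± 0.0467 (edgeR adjusted p = 8.24e-17) and 0.19 ± 0.0451 (edgeR adjusted p = 0.000601). Set directly, FURIN was 1.99-fold lower in the PRMT5 knockdown than in the MEP50 knockdown (edgeR adjusted p = 8.33e-19).

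TspanC8 tetraspanins, which carry ADAM10 to the surface, rose in 4 of 5 tested genes in each knockdown, and 1 fell in the PRMT5 knockdown, where 26.1% and 26.5% of all genes rose in the PRMT5 and MEP50 knockdowns. TSPAN14 averaged 247 ± 5.46 CPM in the PRMT5 knockdown, 197 ± 4.93 CPM in the MEP50 knockdown and 147 ± 0.555 CPM in the control, and TSPAN15 55.5 ± 1.33, 52.8 ± 3.31 and 29.9 ± 0.965 CPM. TSPAN14 and TSPAN15 were higher in the knockdowns, in which ADAM10 itself was lower. The gene that fell was TSPAN33, with a log2 fold change of -0.95 in the PRMT5 knockdown (edgeR adjusted p = 0.00518). In the MEP50 knockdown TSPAN33 was not called (-0.39, edgeR adjusted p = 0.255). Of the iRhom complex, which carries and stabilises ADAM17, 1 of 3 genes rose and 1 fell in the PRMT5 knockdown, and 2 fell in the MEP50 knockdown. RHBDF2, encoding iRhom2, averaged 29.3 ± 1.16 CPM in the PRMT5 knockdown, 18.7 ± 2.22 CPM in the MEP50 knockdown and 29.4 ± 1.13 CPM in the control. It fell in the MEP50 knockdown alone by call (log2 fold change -0.64 ± 0.0761, edgeR adjusted p = 2.42e-09). FRMD8 fell in each knockdown, with log2 fold changes of -0.63 in the PRMT5 knockdown (edgeR adjusted p = 1.12e-10) and -0.94 in the MEP50 knockdown (edgeR adjusted p = 5.8e-15). RHBDF1 rose in the PRMT5 knockdown (0.20, edgeR adjusted p = 0.0356) and was not called in the MEP50 knockdown (-0.07). FURIN, TSPAN14, TSPAN15, TSPAN33, RHBDF1, RHBDF2 and FRMD8 were chosen for naming after their values were seen.

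Of other inhibitors, inducers and clearance receptors, 0 of 5 tested rose and 2 fell in the PRMT5 knockdown, and 1 rose and 4 fell in the MEP50 knockdown. Of all genes tested, 26.1% rose and 24.9% fell in the PRMT5 knockdown, and 26.5% rose and 25.2% fell in the MEP50 knockdown. TFPI2, a matrix-bound serine protease inhibitor, averaged 457 ± 15.3 CPM in the PRMT5 knockdown, 362 ± 6.93 CPM in the MEP50 knockdown and 783 ± 20.8 CPM in the control. TFPI2 fell by 0.78 ± 0.0283 in the PRMT5 knockdown (log2, edgeR adjusted p = 7.27e-25) and by 1.11 ± 0.0287 in the MEP50 knockdown (edgeR adjusted p = 6.71e-30). SPOCK1, a proteoglycan reported to inhibit membrane-type MMPs, had 5, 37 and 5 reads in the PRMT5 knockdown, MEP50 knockdown and control, and rose in the MEP50 knockdown (by 3.02 ± 0.72 on the log2 scale, edgeR adjusted p = 0.000507).

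Of the membrane proteins that ADAM10 and ADAM17 shed, 12 of 25 rose and 8 fell in the PRMT5 knockdown (median log2 fold change 0.21), and 13 rose and 9 fell in the MEP50 knockdown (median 0.14). Of all genes tested, 26.1% rose and 24.9% fell in the PRMT5 knockdown and 26.5% rose and 25.2% fell in the MEP50 knockdown, with medians of 0.00. Ligands were found on both sides. TGFA, an EGF receptor ligand, averaged 6.23 ± 0.536 CPM in the PRMT5 knockdown, 3.9 ± 0.809 CPM in the MEP50 knockdown and 1.76 ± 0.148 CPM in the control, and JAG1, a Notch ligand, 332 ± 5.7, 231 ± 2.46 and 147 ± 1.95 CPM. HBEGF, another EGF receptor ligand, averaged 8.21 ± 0.772, 4.53 ± 0.684 and 10.4 ± 0.0681 CPM, and the receptor gene NOTCH3 75.7 ± 2.73, 73.2 ± 3.32 and 161 ± 2.12 CPM, in the same order of groups. TGFA and JAG1 rose, and HBEGF and NOTCH3 fell, in each knockdown. CDH1, which encodes E-cadherin, averaged 34.9 ± 2.45 CPM in the PRMT5 knockdown, 75.6 ± 8.5 CPM in the MEP50 knockdown and 40.1 ± 1.64 CPM in the control, with log2 fold changes of -0.20 (edgeR adjusted p = 0.0131) and 0.92 (edgeR adjusted p = 8.73e-14).

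The matrix proteins that ADAMTS proteases cut or bind were detected in 8 of 17 cases with enough reads, and ACAN had no read. Of the 8, 6 rose and none fell in the PRMT5 knockdown (median log2 fold change 0.55), and 6 rose and 1 fell in the MEP50 knockdown (median 1.28), where 26.1% and 26.5% of all genes rose. FBN1, the microfibril protein fibrillin-1, averaged 8.52 ± 0.449 CPM in the PRMT5 knockdown, 13.2 ± 0.348 CPM in the MEP50 knockdown and 5.96 ± 0.699 CPM in the control, the group order of ADAMTS6. FN1, which encodes fibronectin, averaged 19.5 ± 1.77, 20.8 ± 2.53 and 7.46 ± 0.225 CPM, and COL3A1, the fibrillar collagen listed above among fibroblast markers, 214 ± 6.23, 256 ± 8.83 and 96.6 ± 0.502 CPM. THBS1 rose in the PRMT5 knockdown (log2 fold change 0.16, edgeR adjusted p = 0.000647) and fell in the MEP50 knockdown (-0.65, edgeR adjusted p = 1.1e-16). LTBP1 was not called in the PRMT5 knockdown (-0.03) and rose in the MEP50 knockdown (1.12), and BCAN was called in neither (-0.12 and -1.01). THBS1 and BCAN were named after their values were seen. COL5A1, a regulatory fibrillar collagen, had the largest difference of the 8, at 77.5 ± 1.16 CPM in the PRMT5 knockdown, 109 ± 0.722 CPM in the MEP50 knockdown and 1.18 ± 0.21 CPM in the control. The log2 fold change of COL5A1 was 6.05 ± 0.0843 in the PRMT5 knockdown (edgeR adjusted p = 6.51e-39) and 6.54 ± 0.0819 in the MEP50 knockdown (edgeR adjusted p = 2.15e-40). The procollagen N-proteinases that process these collagens stayed below the read filter in all groups.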

How the data were processed

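RNA was sequenced with a stranded protocol after rRNA depletion, per the labels' protocols. The deposited count table gave whole reads for each Ensembl gene. Per the submitters' processing notes, the authors used Trim Galore, STAR and HTSeq on hg19; versions and the strand setting are not given in the sources used here. The 5 HTSeq summary lines entered neither library sizes nor tests; their no-feature lines averaged 14.2, 13.2 and 12.1% of counted reads in the PRMT5 knockdown, MEP50 knockdown and GFP control. Per the file headers, 2 tables of comparisons deposited by the authors give log2 fold changes of DESeq2 and edgeR with adjusted p-values.

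Symbols were matched for 86.5% of the identifiers. Gene type and exon length came from GENCODE 29 on GRCh38, so no coordinates are given except for RefSeq promoters, found for 44 of 69 members (63.8%); a check of base composition over members would be void at this share.

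The test was edgeR 4.0.16 in R 4.3.3 (TMM, filterByExpr, robust quasi-likelihood fit, 9 libraries in 1 fit with the group as the only term, 14582 genes, Benjamini-Hochberg adjustment, threshold 0.05). The SE was taken as the size of the log2 fold change divided by the root of F. Scaling factors ran from 0.99 to 1.01, the biological coefficient of variation was 0.0395, and replicate pairs differed by 3.3 to 4.61 times the counting variance, so no library was a copy of another. Intervals of ratios are exact binomial. Alternatives were DESeq2 1.42.0, scaling by RLE, upper quartile or library totals, no read filter, a filter at 1 CPM in 3 libraries, a replicate block, fits of 6 libraries and removal of each library. The main fit was also run on simulated counts with the same spread for all genes and changes planted in genes above 1 CPM. That run does not cover calls of members with fewer reads. All tested members are named; per-library levels are given for called members past 2-fold, tested TIMPs and the 3 highest per subfamily. Members and lists were chosen with earlier results of these data known.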

Additional observations from a re-analysis of the deposited data

Results flagged for a closer look

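ADAM17 was flagged because it had calls in opposite directions in the knockdowns together with a call in their direct comparison. The direct call was thus a condition of the choice and adds no separate support. Over all genes tested, 2.63% were called in opposite directions, beside 1 of the 30 members. The log2 difference of the PRMT5 knockdown minus the MEP50 knockdown was 0.30 (edgeR adjusted p = 2.15e-07). All 3 PRMT5 knockdown libraries lay above all 3 MEP50 knockdown libraries. The rise of ADAM17 against the control in the PRMT5 knockdown lost its call in 3 of 17 alternatives, each with 1 library left out, as given above. In these the log2 fold change was 0.10, beside 0.13 with all libraries. The fall of ADAM17 in the MEP50 knockdown was kept in the 17 alternatives.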

How the results depend on the processing

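Of the called members, 16 of 20 kept their call in all 17 alternatives in the PRMT5 knockdown, 16 of 21 in the MEP50 knockdown and 11 of 14 between the knockdowns; those that lost it are given with their values above. With 1 library left out, members that rose numbered 9 to 11 in the PRMT5 knockdown and 6 to 8 in the MEP50 knockdown, those that fell 9 to 10 and 11 to 13, and between the knockdowns 8 to 11 were higher and 3 to 6 lower. Scaling moved the median of all genes by at most 0.02 (log2).

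Medians of subfamilies depended on the read filter. Without it the MMP median was 0.02 in the PRMT5 knockdown, -0.21 in the MEP50 knockdown and 0.67 between the knockdowns. The ADAM median was then 0.02 in the MEP50 knockdown. Between the knockdowns the median of the ADAMTS and ADAMTSL genes changed sign, from -0.09 with the filter to 0.10 without it. With a filter at 1 CPM that median was -0.27. More members with few reads enter without the filter.

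With 1 library left out in turn, the log2 fold changes of some uncalled members changed sign, with these ranges. In the PRMT5 knockdown this was ADAMTS1 (-0.11 to 0.07). In the MEP50 knockdown it was ADAM11 (-0.08 to 0.15), ADAM32 (-0.09 to 0.25), ADAMTS10 (-0.02 to 0.19), ADAMTS7 (-0.26 to 0.01) and TIMP4 (-0.36 to 0.16). Between the knockdowns it was ADAM9 (-0.02 to 0.05), ADAMTS13 (-0.27 to 0.68), ADAMTSL5 (-0.02 to 0.39) and MMP14 (-0.04 to 0.12). The cause was not tested.

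Deviations of libraries with the same replicate number had correlations of -0.036 to 0.052, and those with different numbers -0.054 to 0.052. Between the control and the MEP50 knockdown, same-number pairs ran from 0.044 to 0.052 and the others from -0.046 to 0.002. In the pairs with the PRMT5 knockdown the ranges overlapped. Correlations this small do not settle whether the numbers pair the libraries. With the replicate block 10 members rose and 12 fell in the PRMT5 knockdown, 8 rose and 13 fell in the MEP50 knockdown, and 11 were higher and 4 lower between the knockdowns; ADAMTS13 (-1.19) and TIMP4 (-0.78) were added in the PRMT5 knockdown and MMP19 (0.66) between the knockdowns.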
